A study of Mus musculus with 24 samples.

Results

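Liver messenger RNA was examined for 8 genes of glycogen synthesis and breakdown: Ugp2, Gys2, Gbe1, Ppp1r3b, Ppp1r3c, Ppp1r3g, Pygl and Slc2a2. All 8 were found by symbol among the 13686 genes of the count table, and all 8 were among the 11971 genes that passed the filter on low counts. The set was chosen by measured values of these same libraries, because Gbe1 and Ppp1r3c differ in opposite directions on the cottonseed oil diet. That difference is therefore described below without a test. The libraries came from male wild-type (WT) mice of the C57BL/6 strain that ate chow or 1 of 3 enriched diets, made with cottonseed oil (CSO), with olive oil (OO) or with safflower oil (SFO), for 6 weeks. The count table has 6 CSO, 6 OO, 5 SFO and 6 chow libraries. The fat content and other composition of the diets are not given in the sources used here, so the oil diets and chow may differ in more than the oil. The assay was QuantSeq, in which each read comes from near the 3′ end of a messenger RNA. CPM is a gene's count scaled to 1e+06 counts of its library, with TMM scaling (edgeR's correction for library composition).

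The liver stores glucose as glycogen after meals and releases it between meals. Ugp2 makes UDP-glucose, the glucose donor. Gys2, the liver glycogen synthase, joins glucose units into chains, and Gbe1, the branching enzyme, adds the branches. Pygl, the liver glycogen phosphorylase, takes glucose units off the chains. Ppp1r3b, Ppp1r3c and Ppp1r3g are targeting subunits that bring protein phosphatase 1 to glycogen, where it activates the synthase and inactivates the phosphorylase. Slc2a2 (GLUT2) is the main glucose transporter of the hepatocyte membrane.

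Library totals ran from 5.43e+06 to 1.49e+07 counts. Hepatocyte markers (7 of 8 listed in the table, Alb among them) summed to 107000 to 185000 CPM per library. The libraries CSO 1 and chow 3, 4 and 5 carried muscle transcripts, with over 100 CPM of Acta1, the skeletal muscle actin. In these 4, all 14 muscle markers summed to 721 to 3190 CPM, against 0.598 to 111 CPM in the other 19. A clock score, the mean log2 CPM of Per2, Per3, Tef, Dbp and Ciart minus that of Clock, Arntl and Nfil3, was 2.56 ± 0.80 in CSO (SD, n = 6), -0.20 ± 1.67 in OO (n = 6), 0.18 ± 2.25 in SFO (n = 5) and 0.21 ± 1.42 in chow (n = 6). Adipocyte markers (3 of 5 listed in the table) summed to a median of 95.8 CPM in CSO (40.5 to 215), 27.1 in OO (2.12 to 97.5), 7.74 in SFO (3.64 to 31.3) and 10.6 in chow (3.66 to 84.2). Of these, Cfd (adipsin) averaged 74.8 ± 49.5 CPM in CSO and 8.97 ± 11.1 in chow, and Cidec, a lipid droplet gene, 29.1 ± 13.3 in CSO and 12.6 ± 15.7 in chow (SD, n = 6 each). Lep, the leptin gene, was at 0 in every CSO, OO and SFO library and at 0 to 11.9 CPM in chow. The part of adipocyte markers in the results was not tested, and that of muscle transcripts and the clock score only by the fits named below. The labels call these separate samples and do not say whether each is a separate mouse, so the p-values rest on a spread between samples that may be technical. In whole liver, fewer cells of a type and less RNA per cell cannot be told apart.

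The 250 bases before the start of Gbe1 and of Ppp1r3c are shown because these are the 2 genes on which the set turns. They are the RefSeq sequences of the mouse build GRCm38.p6, read 5′ to 3′ on the gene's strand. The counts were made on another build (mm39, per the submitters' processing notes), so only the gene symbols link them to the values. Gbe1 lies at chr16:70313699-70313948 on the plus strand, with 48.8% G and C. Ppp1r3c lies at chr19:36736605-36736854 on the minus strand, with 64.4% G and C. Capitals mark an E-box, a motif that clock factors can bind.
Gbe1: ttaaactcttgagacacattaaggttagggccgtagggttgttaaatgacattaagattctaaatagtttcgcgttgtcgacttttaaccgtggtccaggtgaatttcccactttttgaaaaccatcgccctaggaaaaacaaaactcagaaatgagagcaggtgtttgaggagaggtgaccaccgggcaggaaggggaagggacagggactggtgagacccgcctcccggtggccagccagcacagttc
Ppp1r3c: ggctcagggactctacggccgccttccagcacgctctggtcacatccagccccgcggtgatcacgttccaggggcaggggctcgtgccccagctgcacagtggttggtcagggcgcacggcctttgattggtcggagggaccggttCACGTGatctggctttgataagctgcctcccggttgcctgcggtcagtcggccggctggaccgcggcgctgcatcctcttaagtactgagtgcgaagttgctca

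On both strands, 4 motifs were searched: the E-box CACGTG, the D-box TTATGNAA, the cyclic AMP response element TGACGTCA and the FOXO site GTAAACA. The motifs do not contain one another. The Ppp1r3c window holds 1 E-box, from 104 to 99 bases before the start, and none of the other 3 motifs. The Gbe1 window holds none of the 4. Of all 32851 windows of this length in the same table, 6.02% hold the E-box, 3.07% the D-box, 1.55% the cyclic AMP response element and 3.17% the FOXO site. The table gives 7 windows for 6 of the 8 genes (Gys2 and Ppp1r3b have none), and 1 of the 7 holds an E-box. A match describes the letters only.

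Gbe1 was high on 2 of the 3 oil diets. It ranged from 139.8 to 236 CPM with a median of 183 in CSO livers, and from 64.1 to 120 with a median of 94.9 in chow livers. In OO livers it ranged from 95.7 to 244 CPM, with a median of 186. In the 5 SFO livers it was at 95.8, 108, 82.5, 113 and 108 CPM. All 6 CSO libraries lay above every chow library and above every SFO library. In OO, 5 of 6 libraries lay above every chow library, and OO 1 lay among them. The means were 185 ± 38.5 CPM in CSO (SD, n = 6), 182 ± 54.1 in OO (n = 6), 102 ± 12.4 in SFO (n = 5) and 93.0 ± 18.9 in chow (n = 6). In order, CSO and OO differed by less than their spread, and so did SFO and chow. The log2 fold change against chow was 0.99 ± 0.20 (SE) in CSO, 0.97 ± 0.20 in OO and 0.13 ± 0.21 in SFO. These 3 comparisons share the chow libraries that were used to choose the gene, and they are given as descriptions. Without the 4 libraries with muscle transcripts the CSO difference was 1.03 ± 0.27, and with the clock score as a covariate it was 1.04 ± 0.23.

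Ppp1r3c, whose product targets the phosphatase to glycogen in liver and other tissues, was low in CSO and high in OO. It ranged from 7.27 to 26.5 CPM with a median of 9.22 in CSO livers, and from 12.8 to 31.9 with a median of 27.1 in chow livers. In OO livers it ranged from 20.4 to 231 CPM, with a median of 81.1. The 5 SFO livers had 10.4, 66.9, 16.03, 65.6 and 43.6 CPM. Among CSO libraries 5 of 6 lay below every chow library, and CSO 4, at 26.5 CPM, lay within the chow range. Among OO libraries 5 of 6 lay above every chow library, and the SFO libraries lay on both sides of the chow range. The means were 12.1 ± 7.20 CPM in CSO (SD, n = 6), 95.4 ± 72.0 in OO (n = 6), 40.5 ± 26.6 in SFO (n = 5) and 24.1 ± 8.10 in chow (n = 6). The order was OO, SFO, chow, CSO, and SFO overlapped each of its neighbours.

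The log2 fold change of Ppp1r3c was -0.998 ± 0.444 in CSO against chow, 1.98 ± 0.45 in OO against chow and 0.74 ± 0.46 in SFO against chow, again without a test. Against the mean of OO and SFO it was -2.36 ± 0.43 in CSO. Leaving out each library in turn gave -1.39 to -0.89 for CSO against chow. Without the 4 libraries with muscle transcripts that difference was -0.67 ± 0.59, with a chow mean of 19.4 ± 9.02 CPM (n = 3), and with the clock score as a covariate it was -0.86 ± 0.54. The OO difference was 1.498 to 2.199 when 1 library was left out. Gbe1 and Ppp1r3c thus had opposite signs against chow in CSO and the same sign in OO.

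**Figure D1:**
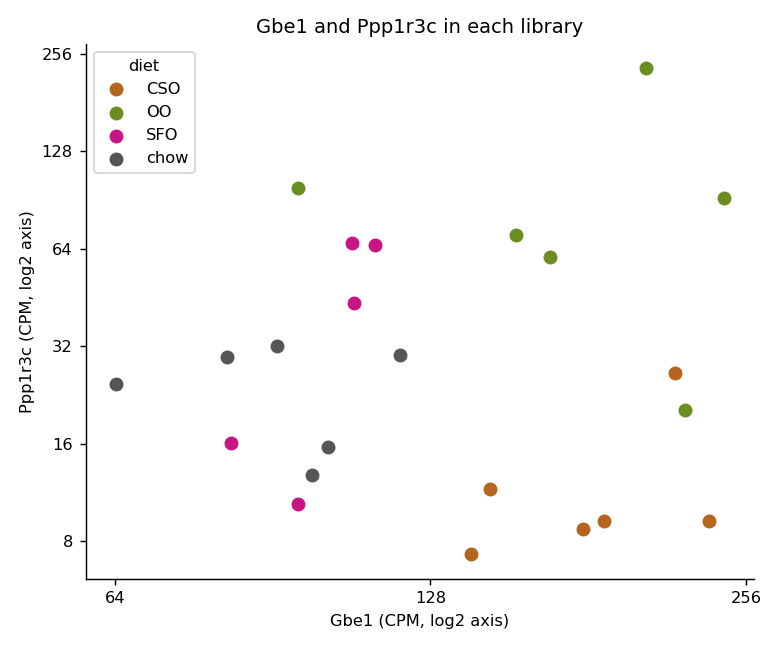
Ppp1r3c (y axis) against Gbe1 (x axis) in CPM on log2 axes, 1 point per library, coloured by diet. CSO points sit at 139.8 to 236 CPM of Gbe1 and 7.27 to 26.5 CPM of Ppp1r3c; chow points sit at 64.1 to 120 CPM and 12.8 to 31.9 CPM.

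Among the enzymes of synthesis, Ugp2 was high in OO. It ranged from 408 to 885 CPM with a median of 473 in OO livers, and from 265 to 356 with a median of 312 in chow livers. In CSO livers it ranged from 267 to 334 CPM, with a median of 309. The SFO livers, 5 in number, had 311, 368, 316, 300.2 and 390.4 CPM. All 6 OO libraries lay above every library of the other 3 diets, and OO 3, at 885 CPM, lay far above the next, at 513. The mean was 527 ± 180 CPM in OO (SD, n = 6) and 313 ± 36.6 in chow (n = 6), a log2 fold change of 0.75 ± 0.15 (adjusted p = 0.00318). It stayed called whichever library was left out, at 0.54 to 0.83. Without the 4 libraries with muscle transcripts, which leaves 3 chow libraries, it was 0.65 ± 0.20 (adjusted p = 0.200). SFO and CSO means, 337 ± 39.7 (n = 5) and 307 ± 24.8 (n = 6) CPM, differed from chow by less than the spread, at 0.11 ± 0.16 (adjusted p = 0.974) and, without a test, -0.03 ± 0.15.

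Gys2 was highest in CSO. It ranged from 298 to 449 CPM with a median of 404 in CSO livers, and from 222 to 347 with a median of 249 in chow livers. In OO livers it ranged from 156 to 329 CPM, with a median of 203. The 5 SFO livers had 113, 298, 386, 116 and 241 CPM. Among CSO libraries 5 of 6 lay above every chow library and every OO library, and the SFO libraries spanned most of the range of the other diets. The means were 397 ± 54.9 CPM in CSO (SD, n = 6), 223 ± 63.1 in OO (n = 6), 231 ± 118 in SFO (n = 5) and 265 ± 47.3 in chow (n = 6). The log2 difference from chow was 0.58 ± 0.22 in CSO, given without a test since these libraries chose the set, -0.25 ± 0.22 in OO (adjusted p = 0.640) and -0.20 ± 0.23 in SFO (adjusted p = 0.947). With the clock score as a covariate the CSO difference was 0.18 ± 0.20. The clock score was also highest in CSO; its part in the difference was not tested beyond that fit.

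**Figure D2:**
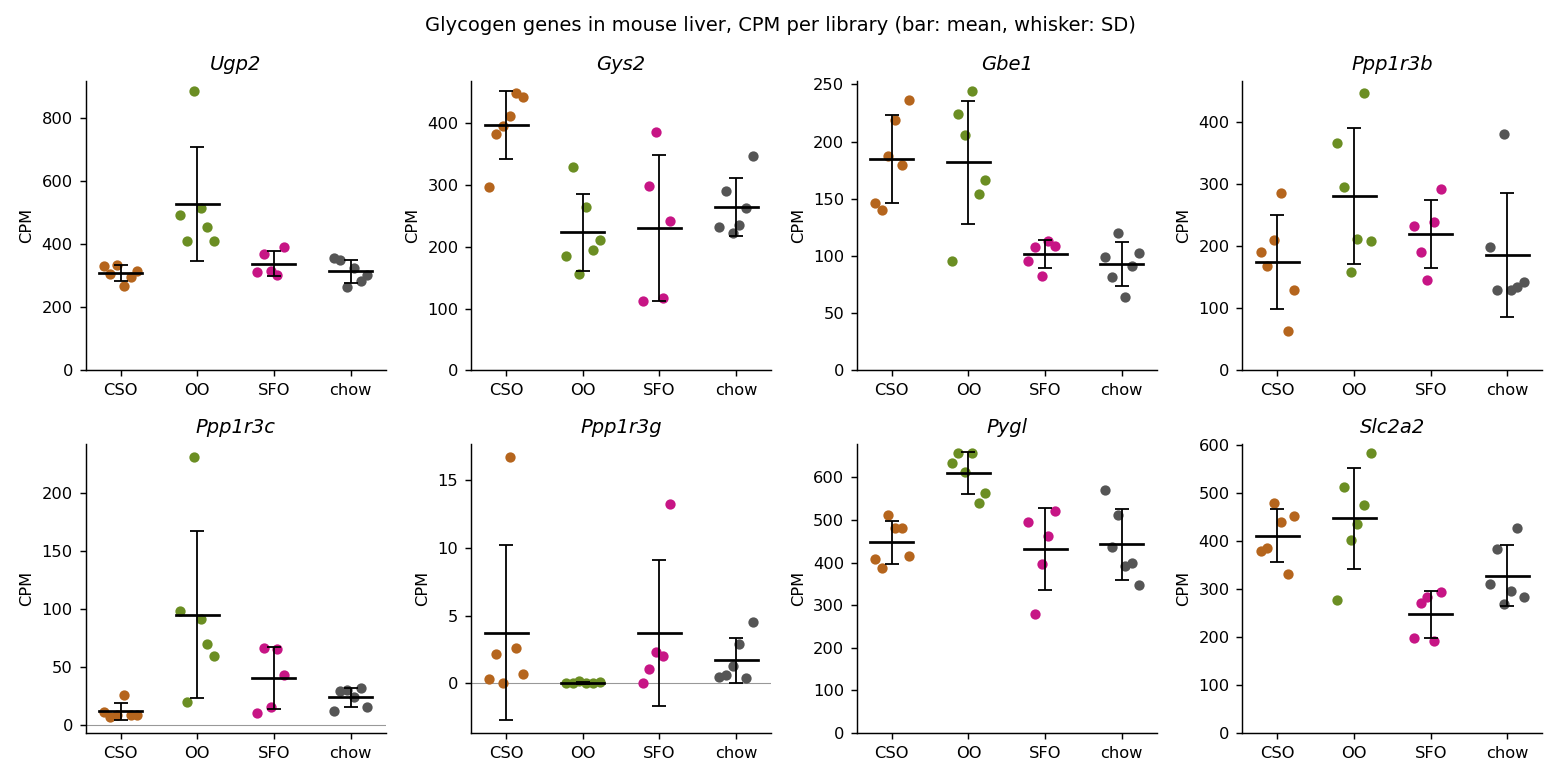
CPM (y axis, linear) of the 8 genes by diet, 1 point per library, with the mean as a bar and the SD as a whisker (6 libraries per diet, 5 for SFO). Ugp2 and Pygl sit highest in OO, Gys2 in CSO, and Gbe1 in both CSO and OO.

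Ppp1r3b, the main phosphatase targeting subunit of liver, varied widely within each diet. It ranged from 63.0 to 286 CPM with a median of 179 in CSO livers, from 158 to 446 with a median of 254 in OO livers and from 129 to 381 with a median of 138 in chow livers. The 5 SFO livers had 232, 191, 145, 239 and 291 CPM. Each oil diet overlapped chow, and chow 3, at 381 CPM, lay far above the next chow library, at 199. The log2 difference from chow was 0.60 ± 0.33 in OO (adjusted p = 0.402), 0.24 ± 0.35 in SFO (adjusted p = 0.972) and, without a test, -0.09 ± 0.33 in CSO. Without chow 3 these were 0.94 ± 0.28 (adjusted p = 0.0735), 0.58 ± 0.29 (adjusted p = 0.737) and 0.25 ± 0.27. With any 1 library left out they ran from 0.42 to 0.94 in OO, from 0.12 to 0.58 in SFO and from -0.28 to 0.25 in CSO, where the sign also turned without CSO 5.

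Ppp1r3g, a targeting subunit known from mouse liver, was close to the limit of detection. It had 232 counts over the 6 CSO libraries, 2 over the 6 OO libraries, 123 over the 5 SFO libraries and 122 over the 6 chow libraries. The OO libraries had 0 to 0.138 CPM, all below the chow range of 0.427 to 4.50 CPM. The SFO libraries had 0, 1.08, 2.28, 2.01 and 13.3 CPM, and the CSO libraries 0 to 16.7 CPM with a median of 1.44. CSO 4 and SFO 6 held by far the highest values of their diets. Scaled by library size, the ratio of OO to chow was 0.0201, with an exact 95% interval of 0.0024 to 0.074 that covers counting error only. The edgeR test over all 4 diets gave an adjusted p of 0.0731 for OO against chow and 0.955 for SFO against chow, so neither passed 0.05. For CSO against chow, leaving out 1 library moved the log2 difference from 1.12 ± 1.30 to between -0.56 and 1.68.

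Pygl, the enzyme of breakdown, was highest in OO. It ranged from 541 to 658 CPM with a median of 623 in OO livers, and from 346 to 570 with a median of 418 in chow livers. In CSO livers it ranged from 387 to 512 CPM, with a median of 448. Among SFO livers it was at 496, 279.9, 396, 464 and 521 CPM. All OO libraries lay above every CSO and SFO library, and 4 of 6 lay above every chow library. The log2 difference from chow was 0.46 ± 0.14 in OO (adjusted p = 0.0554), -0.04 ± 0.15 in SFO (adjusted p = 0.993) and, without a test, 0.02 ± 0.14 in CSO. The OO difference passed 0.05 when chow 1, OO 5 or SFO 2 was left out, at 0.40 to 0.55 over all libraries left out in turn.

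Slc2a2, the glucose transporter, was lowest in SFO. The 5 SFO livers had 198, 270.2, 283, 192 and 295 CPM, and chow livers ranged from 269 to 428 CPM with a median of 303. It ranged from 331 to 479 CPM with a median of 412 in CSO livers, and from 277 to 583 with a median of 455 in OO livers. All 6 CSO libraries lay above every SFO library. In SFO 2 of 5 libraries lay below every chow library, and in OO 4 of 6 lay above every chow library. The log2 difference from chow was 0.45 ± 0.16 in OO (adjusted p = 0.108), -0.41 ± 0.17 in SFO (adjusted p = 0.456) and, without a test, 0.33 ± 0.16 in CSO. The CSO difference was 0.07 ± 0.17 with the clock score as a covariate. The OO difference passed 0.05 only when OO 1, the lowest OO library, was left out (0.55, adjusted p = 0.0423).

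The choice of the set rests on a difference in CSO, read here as CSO against chow. On that reading, SFO against OO is the only pair of diets whose libraries the choice did not use. The 8 genes were still chosen with earlier results of these data known, so full independence from the choice cannot be claimed. The SFO against OO comparison addresses whether these genes differ between oil diets, without a chow group. As the composition of the diets is not given, SFO and OO may also differ in more than the oil. SFO livers had lower Slc2a2, Gbe1 and Ugp2 than OO livers. Slc2a2 averaged 248 ± 48.9 CPM in SFO (SD, n = 5) and 447 ± 105 in OO (n = 6), a log2 fold change of -0.85 ± 0.17 (adjusted p = 0.00830). Gbe1 averaged 102 ± 12.4 CPM in SFO and 182 ± 54.1 in OO, at -0.84 ± 0.21 (adjusted p = 0.0340). For Ugp2 the means were 337 ± 39.7 CPM in SFO and 527 ± 180 in OO, at -0.64 ± 0.16 (adjusted p = 0.0324). SFO and OO did not overlap for Ugp2 and Pygl. For Slc2a2 3 of 5 SFO libraries lay below every OO library, and for Gbe1 1 of 5. How many of all genes do not overlap between these diets was not counted. In this comparison 3 of 8 genes were called, all lower in SFO, and 1.06% of all 11971 genes were called in either direction.

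The remaining 5 did not pass 0.05. Pygl was at -0.50 ± 0.15 (adjusted p = 0.0723), Ppp1r3c at -1.24 ± 0.47 (adjusted p = 0.184; -0.75 without OO 3, its high library), Ppp1r3b at -0.36 ± 0.35 (adjusted p = 0.673; -0.18 without OO 5) and Gys2 at 0.05 ± 0.23 (adjusted p = 0.945). Ppp1r3g had 123 counts in SFO and 2 in OO, a scaled ratio of SFO to OO of 71.6 (exact 95% interval for counting error, 19.4 to 598) (adjusted p = 0.0553). The Slc2a2 call stayed whichever library was left out, at -0.96 to -0.76. The Gbe1 call was lost without any one of OO 2, 3 and 4 or SFO 1, 2, 3 and 5 (adjusted p up to 0.0873), at -0.97 to -0.73. The Ugp2 call was lost without OO 3 or SFO 1, 3 or 5; without OO 3, its high library, the difference was -0.43 (adjusted p = 0.115). A fit to the SFO and OO libraries alone called none of the 8, with Slc2a2 at -0.84 (adjusted p = 0.113), DESeq2 called 5 and limma voom 1.

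**Figure D3:**
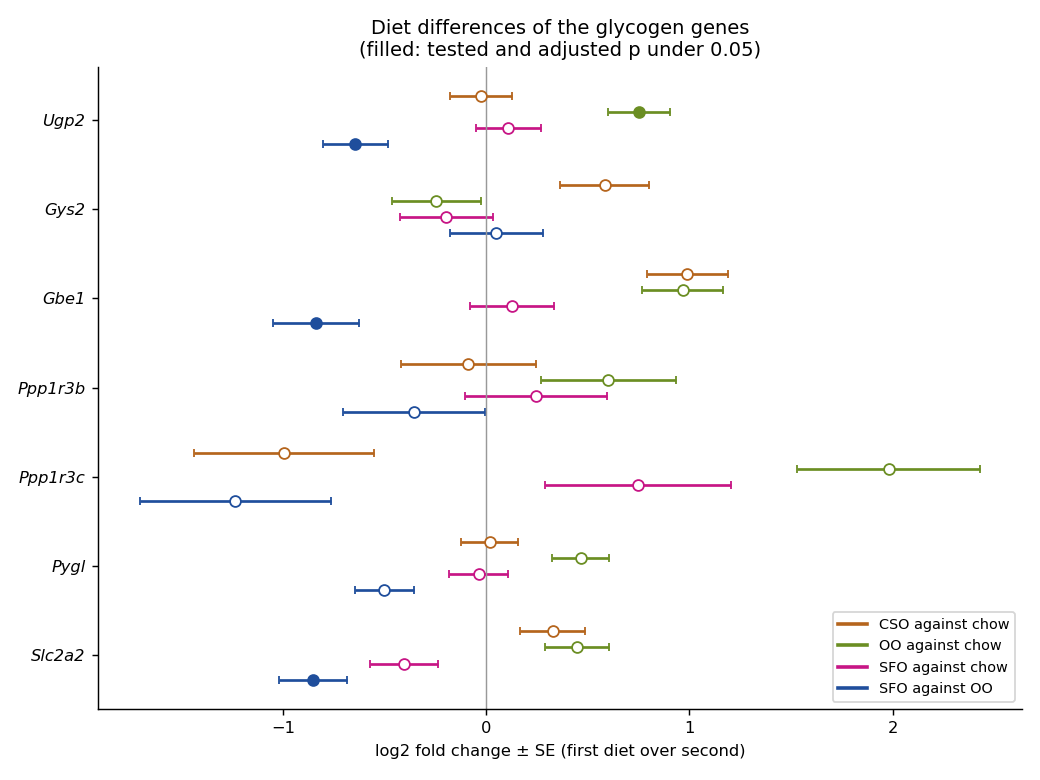
Log2 fold change ± SE (x axis) of 7 of the genes, by row, in CSO, OO and SFO against chow and in SFO against OO, coloured by comparison; Ppp1r3g is left out because of its 2 counts in OO. Filled points were tested and passed an adjusted p of 0.05: Ugp2 in OO against chow, and Ugp2, Gbe1 and Slc2a2 in SFO against OO.

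Of the 6 genes tested against chow, 1 was called in OO (Ugp2, higher), where 2.64% of all genes were called, and 4 had an unadjusted p under 0.05. DESeq2 called 3 and voom 1. In SFO none of the 6 was called by edgeR, DESeq2 or voom, 1 had an unadjusted p under 0.05, and 0.835% of all genes were called. The median log2 difference of the 8 genes was 0.17 in CSO, 0.53 in OO and 0.12 in SFO against chow, and -0.57 in SFO against OO. The medians of all genes tested were -0.02, 0.07, 0.01 and -0.04 in the same 4 comparisons. The medians of the 8 genes against chow are descriptions and show no shift of the set. The CSO median comes from the contrast that chose the set. Those of OO and SFO include Gbe1 and Ppp1r3c, which were chosen with the same chow libraries. Scaling by library totals alone moved the median of all genes in OO against chow to -0.12, with 62 genes called higher and 162 lower in place of 206 and 110. In SFO against OO it moved that median to 0.08, with 33 genes called higher and 23 lower in place of 32 and 95. Under that scaling Ugp2 was at 0.54 and still called in OO against chow, and in SFO against OO Slc2a2 was the only gene of the 8 called, at -0.74.

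In the authors' deposited tables, with the sign turned to the oil diet over chow, Ugp2 was at 0.75 ± 0.16 in OO (adjusted p = 0.000605). The authors' deposited table for OO also had adjusted p-values under 0.05 for Pygl, at 0.46 ± 0.14 (0.0373), and for Ppp1r3g, at -5.36 ± 1.48 (0.0120). For SFO the lowest adjusted p in the authors' deposited table among the 6 genes tested here was 0.410, for Slc2a2.

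The genes differed in how much they varied within a diet. The pooled SD of log2 CPM was 1.68 for Ppp1r3g, 0.94 for Ppp1r3c, 0.59 for Ppp1r3b, 0.48 for Gys2, 0.34 for Gbe1, 0.29 for Slc2a2 and 0.25 each for Pygl and Ugp2. By this pooled SD the 3 targeting subunits had the widest spread of the 8, but not within each diet. In SFO Gys2 was at 0.80 and Ppp1r3b at 0.38, and in OO Gbe1 was at 0.49 and Ppp1r3g at 0.38. Ppp1r3g was close to the limit of detection, so its SD includes counting error. Across the 23 libraries, each centred on its diet mean, 36 pairs of the 8 genes and the clock score were correlated. None passed an adjusted p of 0.05 in the two-sided permutation test, and 4 had an unadjusted p under 0.05. Gys2 and the clock score had Pearson's r of 0.65 and Spearman's rho of 0.56 (permutation p = 0.0144 and 0.0236, adjusted 0.260 and 0.263), and r was 0.59 without the 2 libraries farthest from the median clock score. Slc2a2 and the clock score had r of 0.59 and rho of 0.55 (permutation p = 0.0104 and 0.0171, adjusted 0.260 and 0.263; r without 2 libraries 0.59).

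Pygl went the other way, with r of -0.55 and rho of -0.52 (permutation p = 0.0237 and 0.0202, adjusted 0.284 and 0.263; r without 2 libraries -0.42). The fourth pair was Gys2 with Slc2a2, at r of 0.51 and rho of 0.52 (permutation p = 0.0315 and 0.0292, adjusted 0.284 and 0.263; r without 2 libraries 0.45). Gbe1 and Ppp1r3c, which chose the set, had r of 0.09 and rho of 0.22 within diets (permutation p = 0.710 and 0.323, adjusted 0.937 and 0.849; r without 2 libraries 0.23).

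**Figure D4:**
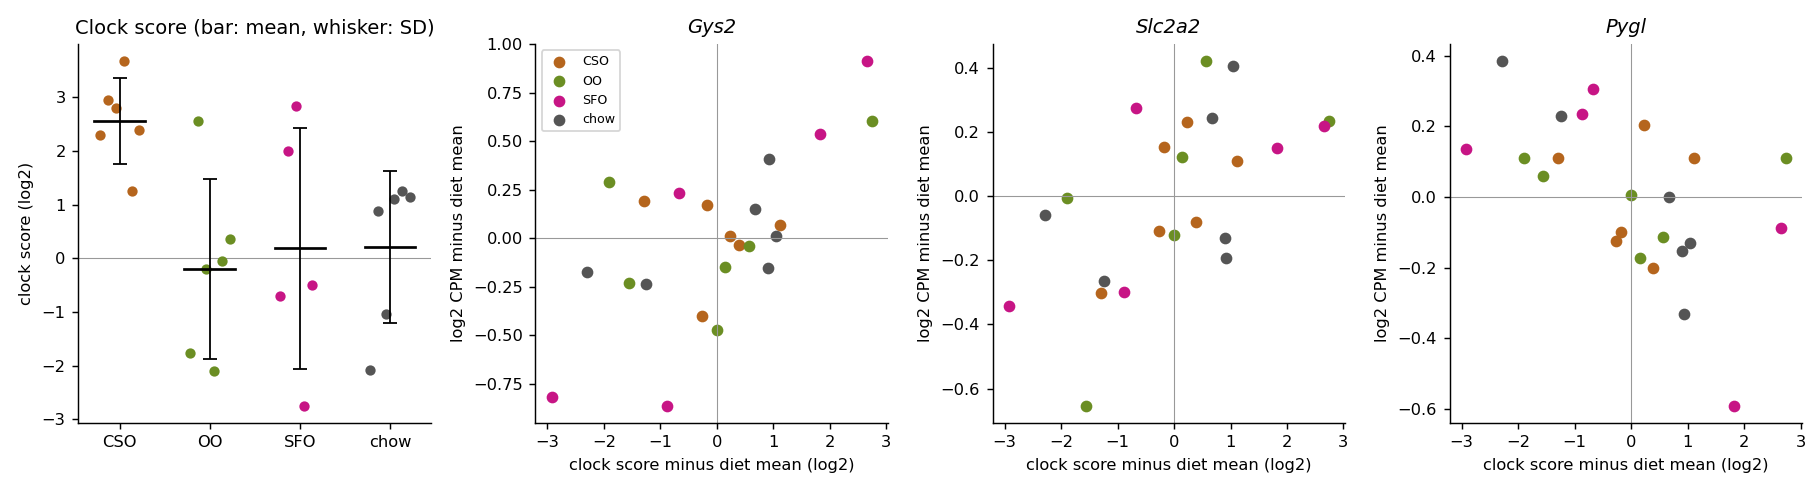
Left, the clock score (log2, y axis) by diet, 1 point per library, with the mean as a bar and the SD as a whisker. Right, log2 CPM of Gys2, Slc2a2 and Pygl (y axis) against the clock score (x axis), each minus its diet mean, for the 23 libraries, with r of 0.65, 0.59 and -0.55.

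The genes whose pattern over the 23 libraries was most like that of Gbe1 were Pcx, Cyp2e1 and Adh1, with root mean square differences of 0.33, 0.37 and 0.37 in centred log2 CPM, where the SD of Gbe1 itself was 0.56. Pcx encodes pyruvate carboxylase, an enzyme of gluconeogenesis, and averaged 789 CPM in CSO, 813 in OO, 647 in SFO and 521 in chow. Those nearest to Ppp1r3c were Angptl8, Timm50 and Tom1l2, at 0.79, 0.86 and 0.92, where the SD of Ppp1r3c was 1.34. Angptl8, a secreted inhibitor of lipoprotein lipase that is induced by feeding, averaged 11.1 CPM in CSO, 50.9 in OO, 35.0 in SFO and 23.6 in chow.

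Other genes around glycogen showed few calls. Of 11 tested genes that prime glycogen or feed glucose into it, edgeR called 2 in OO against chow, beside 2.64% of all genes, and none in CSO against chow, SFO against chow or SFO against OO. In that order, 1, 0 and 3 had an unadjusted p under 0.05, DESeq2 called 1, 0 and 0, and voom called none. For OO against chow, 4 had an unadjusted p under 0.05, DESeq2 called 2 and voom called 0. Pgm1, a phosphoglucomutase, averaged 380 ± 76.6 CPM in OO and 265 ± 29.7 in chow (SD, n = 6 each), at 0.52 ± 0.15 (adjusted p = 0.0470), and lost the call without any one of 14 libraries. Without the 4 libraries with muscle transcripts Pgm1 was at 0.61 ± 0.20 (adjusted p = 0.2355). Hk2, the hexokinase of muscle and fat, was lower in OO, at -4.47 ± 1.24 (adjusted p = 0.0397), and was at 1.01 ± 1.60 (adjusted p = 0.911) without the 4 libraries with muscle transcripts. Its CPM was 17.0 in CSO 1 and 25.1, 44.8 and 5.38 in chow 3, 4 and 5, the muscle libraries. It was also 22.7 CPM in SFO 2 and 6.34 in SFO 5, which had 0.120 and 13.3 CPM of Acta1.

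Of 11 tested genes of breakdown and glucose release, none was called in any of the 4 comparisons; 1, 2, 1 and 2 had an unadjusted p under 0.05 in CSO, OO and SFO against chow and in SFO against OO, DESeq2 called 0, 1, 1 and 0, and voom called none. G6pc, the glucose-6-phosphatase that frees glucose for export, averaged 360 ± 235 CPM in CSO (SD, n = 6) and 327 ± 207 in OO (n = 6). It averaged 424 ± 272 CPM in SFO (n = 5) and 473 ± 132 in chow (n = 6). SFO against OO was at 0.37 ± 0.47 (adjusted p = 0.758). Slc37a4, its glucose-6-phosphate transporter, was at 0.61 ± 0.22 in SFO against OO (adjusted p = 0.147). Against chow, Slc37a4 was at 0.44 ± 0.21 in CSO, -0.175 ± 0.207 in OO and 0.43 ± 0.22 in SFO. Of 8 tested genes of the phosphatase and its control none was called in the 4 comparisons; 0, 0, 1 and 2 had an unadjusted p under 0.05, and DESeq2 and voom called none. The catalytic subunit gene Ppp1cb was at -0.54 ± 0.20 in SFO against chow (adjusted p = 0.361) and Ppp1ca at -0.23 ± 0.26 (adjusted p = 0.945). In CSO against chow, OO against chow and SFO against OO, Ppp1cb was at -0.18 ± 0.19, -0.30 ± 0.19 and -0.24 ± 0.20. Ppp1ca was at -0.30 ± 0.25, 0.12 ± 0.25 and -0.35 ± 0.26 in the same order. Ppp1r3a, the targeting subunit of muscle, had 9.47 CPM in CSO 1 and 6.52, 11.7 and 11.3 in chow 3, 4 and 5, the libraries with muscle transcripts, and at most 0.433 elsewhere.

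Of 18 tested genes of insulin and glucagon signalling none was called in the 4 comparisons; 1, 3, 0 and 0 had an unadjusted p under 0.05, DESeq2 called 1 in OO against chow and none in the others, and voom called none. Gnas, the stimulatory G protein of the glucagon receptor, was at 0.00 ± 0.15 in OO against chow (adjusted p = 0.999) and Mlxipl, the carbohydrate-sensing factor ChREBP, at 0.14 ± 0.20 (adjusted p = 0.790). In CSO set against the OO and SFO mean, where 0.727% of all genes were called, Mlxipl was the 1 gene of this list called. It averaged 216 ± 46.0 CPM in CSO (n = 6), 370.1 ± 86.4 in OO (n = 6), 393 ± 138 in SFO (n = 5) and 335 ± 108 in chow (SD, n = 6), and was at -0.82 ± 0.18 against that mean (adjusted p = 0.0124) and -0.64 ± 0.20 against chow (adjusted p = 0.243). The first call was lost without CSO 5 or CSO 6 (adjusted p up to 0.0546).

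Of 11 tested genes induced by feeding, none was called in CSO or SFO against chow, with list medians of 0.29 and 0.21. In these, 3 and 4 had an unadjusted p under 0.05, DESeq2 called 2 and 0, and voom called 2 and 2. In OO against chow 4 of the 11 were higher, beside 2.64% of all genes, with a list median of 0.64. There 6 had an unadjusted p under 0.05, DESeq2 called 4 and voom 5. Srebf1, a lipogenic transcription factor induced by insulin, was at 1.37 ± 0.23 (adjusted p = 0.000787) and stayed called without the libraries with muscle transcripts, at 1.39 ± 0.30 (adjusted p = 0.0445). Fasn, fatty acid synthase, was at 1.37 ± 0.28 (adjusted p = 0.0137), Acly, which makes cytosolic acetyl-CoA, at 0.78 ± 0.20 (adjusted p = 0.0284), and Pnpla3, a lipid droplet protein, averaged 7.77 ± 11.2 CPM in OO and 0.118 ± 0.221 in chow (adjusted p = 0.0294). Without the muscle libraries, which leaves 3 chow libraries, Fasn was at 1.58 ± 0.38, Acly at 0.84 ± 0.25 and Pnpla3 at 7.05 ± 2.22, so the differences were no smaller, the SEs were larger, and the adjusted p-values were 0.106, 0.168 and 0.204. With 1 library left out, Acly lost the call in 6 of 23 cases and Pnpla3 in 5. In CSO against chow Srebf1 was at 0.935 ± 0.230 (adjusted p = 0.0616).

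In SFO against OO, 5 of 11 feeding-induced genes had an unadjusted p under 0.05, and DESeq2 and voom called 2 each. The list median there was -0.57. Scd1, a fatty acid desaturase, was the 1 called by edgeR, beside 1.06% of all genes, at -1.30 ± 0.27 (adjusted p = 0.0277). It lost the call without OO 3 or SFO 1, 2, 3 or 5 (adjusted p up to 0.0762), and was at -1.29 ± 0.29 (adjusted p = 0.0717) without the muscle libraries. Of 13 tested genes induced by fasting, none was called in OO against chow. There the list median was -0.55, 7 had an unadjusted p under 0.05, DESeq2 called 3 and voom 2. None was called in SFO against OO either. In that comparison the list median was 0.70, 5 had an unadjusted p under 0.05, DESeq2 called 3 and voom 0. Cyp4a14, a fatty acid hydroxylase of a family whose members share sequence, so that its own count is uncertain, was the 1 called in SFO against chow, with 17.7 ± 12.1 CPM in SFO (SD, n = 5) and 378 ± 90.0 in chow (n = 6), at -4.43 ± 0.81 (adjusted p = 0.00668). It was also called in CSO set against the OO and SFO mean, at 4.06 ± 0.58 (adjusted p = 0.000662), with 611 ± 261 CPM in CSO (n = 6) and 76.6 ± 72.1 in OO (n = 6). Cpt1a, which carries fatty acids into mitochondria, was the 1 called in CSO against chow, at 0.55 ± 0.13 (adjusted p = 0.0428), where 0.409% of all genes were called, and it lost the call without any one of 12 libraries. In all, 72 genes were tested in these lists, and 1, 6, 1 and 1 were called in CSO, OO and SFO against chow and in SFO against OO, where 0.409%, 2.64%, 0.835% and 1.06% of all genes were called.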

How the data were processed

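Raw counts per gene were deposited by the authors for 23 of 24 labelled samples; SFO_4, which the submitters describe as an outlier with possible contamination, was not analysed here. Per the submitters' processing notes, the tools were Trimmomatic, STAR 2.7.1a, HTSeq 0.9.1, DESeq2 and DESeq, with mm39; no strand setting of the counting is given in the sources used here. The authors' deposited tables of chow over each oil diet hold a mean signal, a log2 fold change with its SE, a score (the Wald statistic) and p-values.

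The deposited counts were fitted with edgeR 4.0.16 (R 4.3.3): filterByExpr (11971 of 13686 genes kept), TMM, diet as the only term over all 23 libraries, the robust quasi-likelihood F test, and Benjamini-Hochberg adjustment within each comparison over every tested gene, with calls at an adjusted p under 0.05. All p-values in the text without another name come from this test, and fold changes are log2 ± SE, first diet over second. The script was tested on simulated data. CPM in the text are means ± SD, and log2 CPM for scores and correlations used a prior count of 2. Correlations had 100000 permutations within diets. Alternatives used DESeq2 1.42.0, limma 3.58.1 voom, other scalings and filters, left-out libraries and the clock score. The pathway list counts and medians leave out the 8 genes. Levels were not compared between genes.

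The 8 genes, the lists, the rule for named genes and the alternatives were chosen with earlier results of these data known. Named were all 8 genes, up to 4 called genes per list and comparison, the 2 most expressed of a list with none called, and the 3 genes nearest in pattern to Gbe1 and to Ppp1r3c, taken from genes of mean log2 CPM 3 or more, without predicted genes. Ppp1r3a, Cfd, Cidec and Lep are outside the rule and were named after their values were seen. A result that the rule would name is not reported here.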

Additional observations from a re-analysis of the deposited data

Results flagged for a closer look

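Of 32 groups (8 genes in 4 diets), 6 held a library that stood apart from the others of its diet by Dixon's test on linear CPM. The test's nominal rate of about 1 in 20 assumes normally distributed values. Whether these CPM are so distributed was not checked, so 6 of 32 cannot be set against that rate. Ppp1r3b had 381.1 CPM in chow 3, against 198.6 in the next chow library. Ppp1r3c had 26.51 CPM in CSO 4, against 11.62 in the next CSO library, and 231 CPM in OO 3, against 98.31 in the next OO library. Ppp1r3g had 16.73 CPM in CSO 4, against 2.593 in the next, and 13.27 CPM in SFO 6, against 2.277 in the next. Ugp2 had 884.9 CPM in OO 3, against 512.7 in the next OO library. CSO 4 and OO 3 each appear for 2 genes, 5 of the 6 values are of the phosphatase targeting subunits, and chow 3 is one of the 4 libraries with muscle transcripts. Whether muscle transcripts had a part in the chow 3 value was not tested.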

How the results depend on the processing

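Among the 8 glycogen genes no called value changed sign in any setting run. Of the other values 29 did, and these include descriptions that were never tested, such as Ppp1r3b in CSO against chow. Of the called pathway genes, Hk2 in OO against chow turned to 1.01 without the 4 libraries with muscle transcripts. With 1 library left out, members called were 1 to 2 in OO against chow, 0 in SFO against chow and 1 to 4 in SFO against OO; pathway genes called were 0 to 2 in CSO against chow, 2 to 8 in OO against chow, 1 to 2 in SFO against chow and 0 to 3 in SFO against OO; Gbe1 and Ppp1r3c in CSO against chow were at 0.903 to 1.075 and -1.388 to -0.887. Members called in OO against chow (1 as reported) were 3 with DESeq2's test, 0 without the 4 libraries with muscle transcripts and 2 with the clock score. In SFO against OO (3 as reported) they were 1 with library totals, 5 with DESeq2's test, 1 with voom, 1 with the replicate block, 1 without the muscle libraries and 0 with only those diets. Pathway genes in CSO against chow (1) were 0 with DESeq2's size factors, 4 with its test, 3 with voom, 2 with the block, 0 without the muscle libraries, 0 with the clock score and 4 with only those diets. In OO against chow (6) they were 11 with DESeq2's test, 2 with the block and 1 without the muscle libraries; in SFO against chow (1) 2, 3 and 0 with DESeq2's test, voom and without the muscle libraries; and in SFO against OO (1) 0 with library totals, 5 with DESeq2's test, 2 with voom, 2 with the block, 0 without the muscle libraries, 2 with the clock score and 0 with only those diets. The causes were not tested. Genes called among all tested in OO against chow (316) were 686 with DESeq2's test, 125 with voom, 208 with the block, 26 without the muscle libraries and 122 with only those diets; in SFO against OO (127) they were 56 with library totals, 440, 20, 77, 37 and 2 in the same order; in SFO against chow (100) 187 with DESeq2's test and 34 without the muscle libraries; and in CSO against chow (49) 111 with DESeq2's test, 215 with voom, 14 without the muscle libraries, 22 with the clock score and 198 with only those diets. No correlation passed in any setting. The replicate numbers showed no sign of pairing: 33 same-number pairs had r of -0.101 to 0.0346, and 1 of 23 libraries correlated best with its own number. The labels do not say whether samples of the same number were paired, and these r values cannot exclude it. Depth limits Ppp1r3g, with 2 counts in OO.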
